A study of Mus musculus with 4 samples.

Results

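The genes examined here encode the subunits of the proteasome, its assembly chaperones, its activators and an inhibitor. Members were all protein-coding genes whose mouse symbol begins with Psm, a letter from a to g and a digit. The raw table held 52 such genes among 37620 genes, and 48 of them passed the expression filter that left 15462 genes in the normalized table. R1 mouse ESCs of the 129/Sv strain, either wild type (WT) or with Cripto (Tdgf1) knocked out (Cripto KO), were profiled by RNA sequencing in serum/LIF, where they are ESCs, or after 6 days in N2B27 with bFGF and 20 ng per ml of Activin A (F/A), a medium that turns ESCs into epiblast stem cells (EpiSCs). The comparison of both genotypes in both media asks how far the ESC to EpiSC transition depends on Cripto. Which KO clone was sequenced is not given by the labels. There was 1 library for each of the 4 conditions, so no value below has a replicate error and no difference was tested.

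The proteasome degrades proteins tagged with ubiquitin. Its 20S core is a barrel of outer alpha rings and inner beta rings, and the beta subunits Psmb5, Psmb6 and Psmb7 hold the catalytic sites. The 19S regulatory particle, built from ATPases (Psmc genes) and other subunits (most Psmd genes), recognizes and unfolds the substrates. In immune cells and under interferon, the immunosubunits Psmb8, Psmb9 and Psmb10 take the places of Psmb5, Psmb6 and Psmb7, and the activator PA28, made of Psme1 and Psme2, can cap the core. That form favours peptides for antigen presentation. The related activators PA28 gamma and PA200 are encoded by Psme3 and Psme4.

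The libraries held 15230856 to 17315442 counts. Tdgf1 had 18714 counts in WT and 945 in Cripto KO in serum/LIF, and 1572 and 86 in F/A. In the Cripto KO F/A library only 3 of 18700 genes with counts had an odd count (0.016%), against 53.1% to 53.6% of genes in the other libraries, so its counts were halved before every interval was computed. Of 6 naive ESC markers in the normalized table, all were at least 2-fold lower in F/A in both genotypes. Of all genes, 20.9% in WT and 19.4% in Cripto KO were. Nr0b1 had 0 counts in both F/A libraries. Of 6 EpiSC markers, 5 in WT (22.1% of all genes) and 4 in Cripto KO (19.9% of all genes) were at least 2-fold higher in F/A. Otx2 was lower in Cripto KO F/A (log2 change -0.61). The summed raw counts of 7 EpiSC markers were 18686 in WT F/A and 10046 in Cripto KO F/A, of which T made up 8748 and 5598.

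Below, a fold is the ratio of the quantile-normalized values in the deposited table. The interval after it is a 95% exact interval of the ratio of raw counts scaled by library totals. It covers counting error only and is centred on a slightly different ratio, so a normalized fold can lie just outside it.

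The immunosubunits were all higher in F/A in both genotypes, whereas their constitutive counterparts were lower in F/A in WT and had log2 changes between -0.32 and 0.19 in Cripto KO. Psmb8 (ENSMUSG00000024338, NCBIM37 chr17:34334666-34338399, + strand) is the immunosubunit that replaces Psmb5. It had 5 raw counts in WT serum/LIF, 700 in WT F/A, 13 in Cripto KO serum/LIF and 402 in Cripto KO F/A. The F/A libraries therefore stood far above the serum/LIF libraries in both genotypes. In WT the normalized value was 190-fold higher in F/A (interval 67.9 to 492), a log2 change of 7.57. In Cripto KO it was 31.1-fold higher (18.3 to 61.0), a log2 change of 4.96. The width of these intervals reflects the few counts in serum/LIF. Between genotypes, Cripto KO F/A held 0.556 times the WT F/A value (0.473 to 0.651). In serum/LIF the ratio of Cripto KO to WT was 3.40, with an interval from 0.926 to 9.92 that includes 1. Of the exonic bases of Psmb8, 6.83% overlap Gm20496 on the opposite strand, and whether the counting used strand is not given in the sources used here.

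Psmb10 (ENSMUSG00000031897, chr8:108459628-108462292, - strand) replaces Psmb7. It had 327 raw counts in WT serum/LIF, 872 in WT F/A, 273 in Cripto KO serum/LIF and 650 in Cripto KO F/A. Unlike Psmb8 it was thus well detected in serum/LIF. The F/A value was 2.89-fold higher in WT (2.67 to 3.45) and 2.26-fold higher in Cripto KO (2.09 to 2.90). Cripto KO F/A held 0.732 times the WT F/A value (0.633 to 0.820), and in serum/LIF the log2 difference between genotypes was -0.09.

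Psmb9 replaces Psmb6. It had 3 raw counts in WT serum/LIF, 14 in WT F/A, 3 in Cripto KO serum/LIF and 22 in Cripto KO F/A, so its values sit near the detection limit of 3 counts. The ratio of F/A to serum/LIF was 6.61 in WT (1.48 to 28.8) and 8.67 in Cripto KO (2.001 to 42.3). Psmb9 is annotated under a pair of gene identifiers that share 99.67% of the exonic bases of the counted one (ENSMUSG00000092299, chr17:34318933-34324709, - strand). The other identifier had 0 counts in all 4 libraries. Reads on shared exons are ambiguous between the identifiers, so the counts of Psmb9 are uncertain and are not compared with those of Psmb8 and Psmb10.

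The constitutive catalytic subunits moved the other way in WT. Psmb5 had 2951 raw counts in WT serum/LIF, 1347 in WT F/A, 2659 in Cripto KO serum/LIF and 2014 in Cripto KO F/A. Psmb6 had 3547, 1703, 3002 and 2942 raw counts in the same order, and Psmb7 had 4271, 2361, 3517 and 3828. The WT F/A library was the lowest of the 4 for all of these genes. Their log2 changes in WT were -1.03 for Psmb5, -0.95 for Psmb6 and -0.75 for Psmb7. In Cripto KO they were -0.32, 0.05 and 0.19. Of the exonic bases of Psmb5, 11.82% overlap the microRNA gene Mir686.

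Shares within a pair are given from normalized values per kb of median transcript length and from raw counts, of which only the latter leave out the scaling between libraries. Per kb, Psmb8 made up 0.0682% of the sum of Psmb8 and Psmb5 in WT serum/LIF and 21.0% in WT F/A. In Cripto KO the share was 0.249% in serum/LIF and 8.86% in F/A. Both F/A shares were far above both serum/LIF shares, with WT F/A the higher. As shares of raw counts the F/A values were 34.2% in WT (exact 95% interval 32.1% to 36.3%) and 16.6% in Cripto KO (14.6% to 18.9%). Psmb10 made up 5.02% of the sum with Psmb7 in WT serum/LIF, 20.4% in WT F/A, 5.45% in Cripto KO serum/LIF and 10.3% in Cripto KO F/A. In raw counts the F/A shares of Psmb10 were 27.0% (25.4% to 28.5%) in WT and 14.5% (13.1% to 16.0%) in Cripto KO. In F/A, Psmb5 and Psmb7 were still the more abundant transcripts of these pairs in both genotypes.

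**Figure D1:**
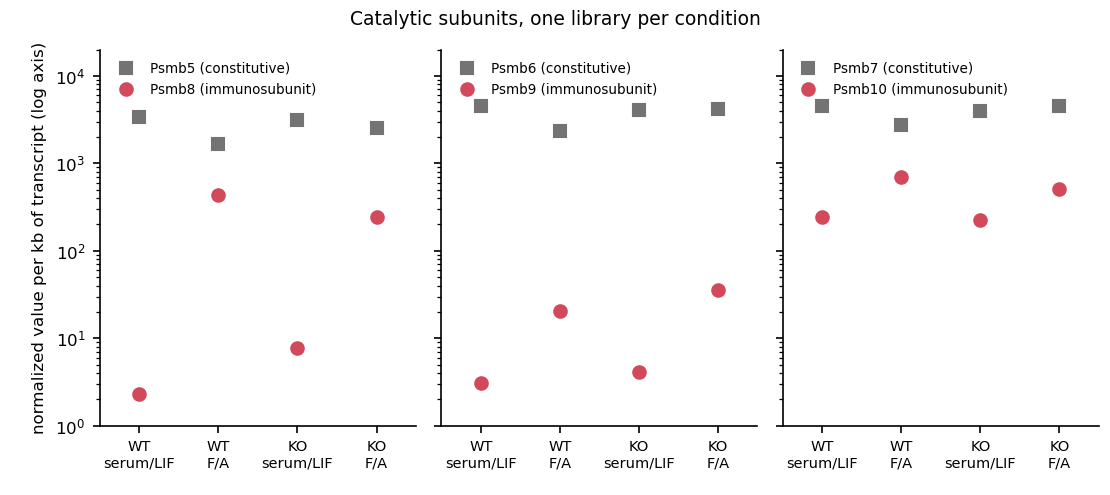
Normalized value per kb of median transcript length (log axis) of each immunosubunit (circles) and its constitutive counterpart (squares) in the 4 libraries, 1 point per library. Psmb8 and Psmb10 are higher in both F/A libraries than in both serum/LIF libraries, while Psmb5, Psmb6 and Psmb7 are lowest in WT F/A. Psmb9 has 3 to 22 raw counts.

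The PA28 genes were higher in F/A in both genotypes by nearly the same factor. Psme1 (PA28 alpha, ENSMUSG00000022216, chr14:56196960-56200366, + strand) had 839 raw counts in WT serum/LIF, 2129 in WT F/A, 685 in Cripto KO serum/LIF and 1874 in Cripto KO F/A. Its F/A value was 2.71-fold higher in WT (2.66 to 3.13) and 2.76-fold higher in Cripto KO (2.56 to 3.12). Psme2 (PA28 beta, ENSMUSG00000079197, chr14:56206278-56209950, - strand) had 476, 2496, 396 and 2112 raw counts in the same order. Its F/A value was 5.62-fold higher in WT (5.40 to 6.59) and 5.35-fold higher in Cripto KO (4.90 to 6.20). For both genes the F/A libraries lay above the serum/LIF libraries, and the genotypes differed within a medium by log2 differences between -0.15 and -0.22. Per kb, Psme1 made up 59.9% of the PA28 sum in WT serum/LIF and 58.9% in Cripto KO serum/LIF, but 41.9% and 42.5% in F/A. Psme1 was thus the more abundant transcript of the pair in serum/LIF and Psme2 in F/A, in both genotypes.

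The promoters of Psmb8, its counterpart Psmb5 and both PA28 genes are shown because Psmb8 and Psmb5 differed in direction in the WT transition and the PA28 genes moved together. Each window runs from 250 bases before to 50 bases after the RefSeq start site (GRCm38.p6), 5′ to 3′ on the strand of the gene. Capitals mark a match to 1 of 4 motifs searched on both strands, the interferon-stimulated response element core GAAANNGAA, the gamma-activated site TTCNNNGAA, the antioxidant response element core TGACNNNGC and CCAAT.
Psmb8 promoter, chr17:34197945-34198244, + strand: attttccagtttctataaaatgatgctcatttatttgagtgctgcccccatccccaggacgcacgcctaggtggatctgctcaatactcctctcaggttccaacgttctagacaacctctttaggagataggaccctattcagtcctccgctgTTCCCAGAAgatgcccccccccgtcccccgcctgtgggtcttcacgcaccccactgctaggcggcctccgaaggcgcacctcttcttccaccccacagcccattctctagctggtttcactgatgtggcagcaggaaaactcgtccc
Psmb5 promoter, chr14:54617946-54618245, - strand: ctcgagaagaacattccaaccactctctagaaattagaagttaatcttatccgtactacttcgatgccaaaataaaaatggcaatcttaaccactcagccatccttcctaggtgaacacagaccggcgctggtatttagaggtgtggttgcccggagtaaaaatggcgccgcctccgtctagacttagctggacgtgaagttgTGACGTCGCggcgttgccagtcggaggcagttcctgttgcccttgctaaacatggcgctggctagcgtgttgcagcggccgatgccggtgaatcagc
Psme1 promoter, chr14:55578244-55578543, + strand: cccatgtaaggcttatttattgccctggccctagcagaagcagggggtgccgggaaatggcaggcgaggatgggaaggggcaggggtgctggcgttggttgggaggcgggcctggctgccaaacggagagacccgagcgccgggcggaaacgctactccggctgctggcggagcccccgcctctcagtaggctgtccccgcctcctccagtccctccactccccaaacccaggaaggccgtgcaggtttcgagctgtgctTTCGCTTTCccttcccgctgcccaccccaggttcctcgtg
Psme2 promoter, chr14:55590972-55591271, - strand: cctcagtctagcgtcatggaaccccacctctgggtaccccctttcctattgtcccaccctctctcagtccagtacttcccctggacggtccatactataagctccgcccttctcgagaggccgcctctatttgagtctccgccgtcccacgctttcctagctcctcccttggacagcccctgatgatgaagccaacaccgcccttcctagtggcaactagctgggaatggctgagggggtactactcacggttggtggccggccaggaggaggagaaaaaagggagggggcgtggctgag
Psmb8 held a gamma-activated site whose first base was 97 bases before the start, Psmb5 an antioxidant response element core 47 bases before it, and Psme1 an interferon-stimulated response element core 10 bases after it. No marked motifs overlapped in these windows, and neither of the RefSeq windows of Psme2 held a match. Promoters were matched for 40 of the 48 members, with 43 windows. A member counted as holding a motif if any of its windows did, whereas the shares over all promoters are per window. The interferon-stimulated core was in 7 of the 40 (17.5%) and in 8.56% of all 32851 promoter windows of the table. The 7 were Psmb3, Psmb4, Psmc2, Psmd4, Psmd9, Psme1 and Psmg4. All of these but Psme1 were lower in WT F/A, and no immunosubunit was among them. For the gamma-activated site the shares were 7.5% (3 of 40) and 8.3%, for the antioxidant core 15% (6 of 40) and 12.4%, and for CCAAT 35% (14 of 40) and 37.4%. These matches describe the letters of the windows only.

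In F/A the ratio of Cripto KO to WT lay further from 1 for Psme4 than for the PA28 genes, a difference that was not tested. Psme4 encodes PA200, an activator best known from testis and from histone degradation, and lies on chr11:30671726-30780361 (ENSMUSG00000040850, + strand). Psme4 had 2950 raw counts in WT serum/LIF, 6176 in WT F/A, 3120 in Cripto KO serum/LIF and 4072 in Cripto KO F/A. The WT F/A library stood above the other 3. The F/A value was 2.32-fold higher in WT (2.28 to 2.49) and 1.35-fold higher in Cripto KO (1.27 to 1.43). Cripto KO F/A held 0.642 times the WT F/A value (0.606 to 0.671), beside 0.882 for Psme1 (0.788 to 0.920) and 0.861 for Psme2 (0.761 to 0.880). The WT log2 change of 1.21 depended on how length was treated. By median transcript length, genes of like length had a median of -0.43 and the change after its subtraction was 1.64. By the longest coding transcript (6491 bases) the running median was above 0 and the change after its subtraction was 0.70.

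Psme3, the nuclear PA28 gamma, had 4269 raw counts in WT serum/LIF, 2914 in WT F/A, 3781 in Cripto KO serum/LIF and 3162 in Cripto KO F/A. Both F/A libraries lay below both serum/LIF libraries, with log2 changes of -0.44 and -0.18. Psmf1, which encodes the proteasome inhibitor PI31, had 688, 515, 579 and 680 raw counts in the same order. Its log2 change was -0.30 in WT and 0.21 in Cripto KO.

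Psma8, the testis-specific alpha subunit that takes the place of Psma7 in germ cells (ENSMUSG00000036743), was detected in ESCs and nearly absent in F/A. It had 491 raw counts in WT serum/LIF, 0 in WT F/A, 412 in Cripto KO serum/LIF and 2 in Cripto KO F/A. Both serum/LIF libraries lay far above the detection limit and both F/A libraries below it. In WT it was at least 144-fold lower in F/A, taking 3 counts as the limit per library. In Cripto KO the ratio of F/A to serum/LIF was 0.00588 (0.000127 to 0.0281). Per kb it made up 7.73% of the sum of Psma8 and Psma7 in WT serum/LIF and 8.16% in Cripto KO serum/LIF. No fold between genotypes is given for F/A, where both libraries were under the limit.

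**Figure D2:**
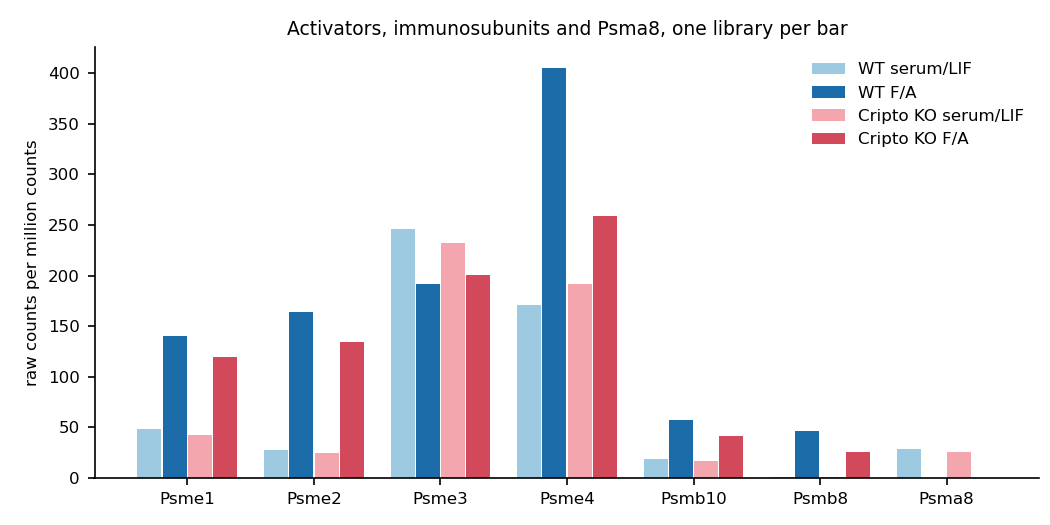
Raw counts scaled to the same total in every library (CPM, linear axis from 0) for the 4 activators, Psmb10, Psmb8 and Psma8, 1 bar per library. Psme1, Psme2, Psmb10 and Psmb8 are higher in both F/A libraries, Psme4 is highest in WT F/A, and Psma8 is seen in the serum/LIF libraries and not in F/A.

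The 31 members that are constitutive subunits of the 20S core and the 19S particle were all well detected. They ranged from 1015 raw counts (Psmb2, Cripto KO serum/LIF) to 8252 (Psmd2, WT serum/LIF). Across all 48 members, 41 were lower in WT F/A than in WT serum/LIF, where 52.5% of all 15462 genes were lower. At the 2-fold threshold 8 members were lower in WT F/A (20.9% of all genes) and 6 were higher (22.1% of all genes). The 6 were Psmb8, Psmb9, Psmb10, Psme1, Psme2 and Psme4. After subtraction of the running median over the longest coding transcript, Psme4 was below 2-fold (log2 0.70) and Psmb2 past it (1.02). The 8 were Psma8, Psma5, Psma7, Psmb3, Psmb5, Psmg1, Psmg3 and Psmg4, of which Psma8, Psmb3, Psmg1 and Psmg4 remained past 2-fold when raw counts were scaled by library totals. With a running median over transcript length or the longest coding transcript subtracted, no constitutive ring subunit or 20S chaperone stayed 2-fold lower. The median log2 change of the members was -0.54, and that of all genes -0.07. In Cripto KO, 23 members were lower in F/A (52.8% of all genes), 5 were at least 2-fold higher (19.9% of all genes) and 1, Psma8, at least 2-fold lower (19.4% of all genes). Their median was 0.01, beside -0.07 for all genes.

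The 14 constitutive subunits of the 20S core had values apart between the genotypes. In WT, F/A was lower for 13 of the 14, and their median log2 change was -0.83. The exception was the beta subunit Psmb2, which had 1296 raw counts in WT serum/LIF and 1463 in WT F/A (log2 change 0.27). In Cripto KO, 5 of the 14 were lower and the median was 0.09. The median of the beta ring was -0.95 for WT and 0.19 for Cripto KO, and that of the alpha ring -0.44 and 0.08. After subtraction of the running median over the longest coding transcript, the WT medians were -0.20 for the beta ring and -0.23 for the alpha ring. In each ring 5 of 7 were then lower. The Cripto KO medians became 0.34 and 0.18.

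Psmb3, a structural beta subunit, was the core subunit with the largest gap between the transitions. It had 2717 raw counts in WT serum/LIF, 1178 in WT F/A, 1796 in Cripto KO serum/LIF and 2124 in Cripto KO F/A. Its log2 change was -1.13 in WT and 0.31 in Cripto KO. The WT F/A library was the lowest and the WT serum/LIF library the highest. Psma7, the alpha subunit replaced by Psma8 in germ cells, had 3298, 1491, 2738 and 2794 raw counts in the same order, and log2 changes of -1.04 and 0.11. Psma5, also of the alpha ring, had 3180, 1451, 2632 and 2146 raw counts, with log2 changes of -1.02 and -0.23. At the upper end of the alpha ring was Psma2, with -0.19 in WT and 0.50 in Cripto KO. Psmb2 was the upper end of the beta ring in Cripto KO as well, with a log2 change of 0.91.

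Without subtraction for length, the 17 members that are subunits of the 19S particle showed smaller values in the same direction. Over the longest coding transcript, the WT median of the 11 that are not ATPases was -0.21, between those of the alpha and beta rings. All 17 were lower in WT F/A, none by 2-fold, with a median log2 change of -0.50, although 1 of them, the ATPase Psmc1 (-0.06), was above 0 under scaling by library totals (0.04). In Cripto KO, 8 of 17 were lower and the median was 0.01. Among the ATPases the WT changes ran from -0.90 for Psmc4 to -0.06 for Psmc1, and the Cripto KO changes from -0.43 to 0.40 for the same genes. The WT median of the 6 ATPases was -0.38, which became -0.26 with 5 of 6 lower after subtraction of the running median over transcript length, and 0.03 with 4 of 6 higher over the longest coding transcript. Among the other subunits, the scaffold subunit Psmd1 was the lowest, with 7468 raw counts in WT serum/LIF, 3689 in WT F/A, 5968 in Cripto KO serum/LIF and 3886 in Cripto KO F/A. Its log2 changes were -0.89 in WT and -0.55 in Cripto KO, so this subunit stood lower in F/A whatever the genotype. Psmd1 shares 8.07% of its exonic bases with Armc9 on the same strand. Psmd6 was the highest of these subunits in WT (-0.15) and Psmd13 in Cripto KO (0.31, beside -0.59 in WT). Adrm1 and Shfm1, 19S subunits whose symbols do not match the rule, are not members. Their log2 changes were -0.90 and -0.40 in WT, and -0.45 and 0.61 in Cripto KO.

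Among the members, all 4 chaperones of the 20S core and all 3 of the 19S particle were lower in WT F/A by normalized value. Pomp, a core chaperone whose symbol does not match the rule, had log2 changes of -0.18 in WT and 0.23 in Cripto KO. Its counting interval in WT included 1 (0.878 to 1.035). Psmg1, which with Psmg2 helps to form the alpha ring, had 1343 raw counts in WT serum/LIF, 496 in WT F/A, 1039 in Cripto KO serum/LIF and 642 in Cripto KO F/A. Its log2 change was -1.33 in WT and -0.73 in Cripto KO. Psmg4, which pairs with Psmg3 in the same process, had 369, 139, 301 and 178 raw counts and log2 changes of -1.30 and -0.80. For both genes each F/A value was below the serum/LIF value of its genotype, with the smaller distance from 0 in Cripto KO. Psmg3 (458, 202, 350 and 360 raw counts) and Psmg2 (749, 412, 541 and 556) had WT changes of -1.07 and -0.74 and were at -0.02 each in Cripto KO. The 19S chaperones Psmd5, Psmd9 and Psmd10 had WT changes of -0.87, -0.69 and -0.47 and Cripto KO changes of -0.48, -0.26 and -0.25. The WT median of the 20S chaperones was -1.19, beside -0.81 after subtraction of the running median over transcript length and -0.31 over the longest coding transcript, with all 4 still lower. In F/A their median difference between genotypes went from 0.35 to 0.02 over the longest coding transcript, with 2 higher and 2 lower. Under that subtraction 2 of the 3 chaperones of the 19S particle were lower in WT and the other was at 0. Psmc3ip, a recombination protein that carries a matching symbol but belongs to no proteasome particle, had log2 changes of -0.73 and -0.15.

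**Figure D3:**
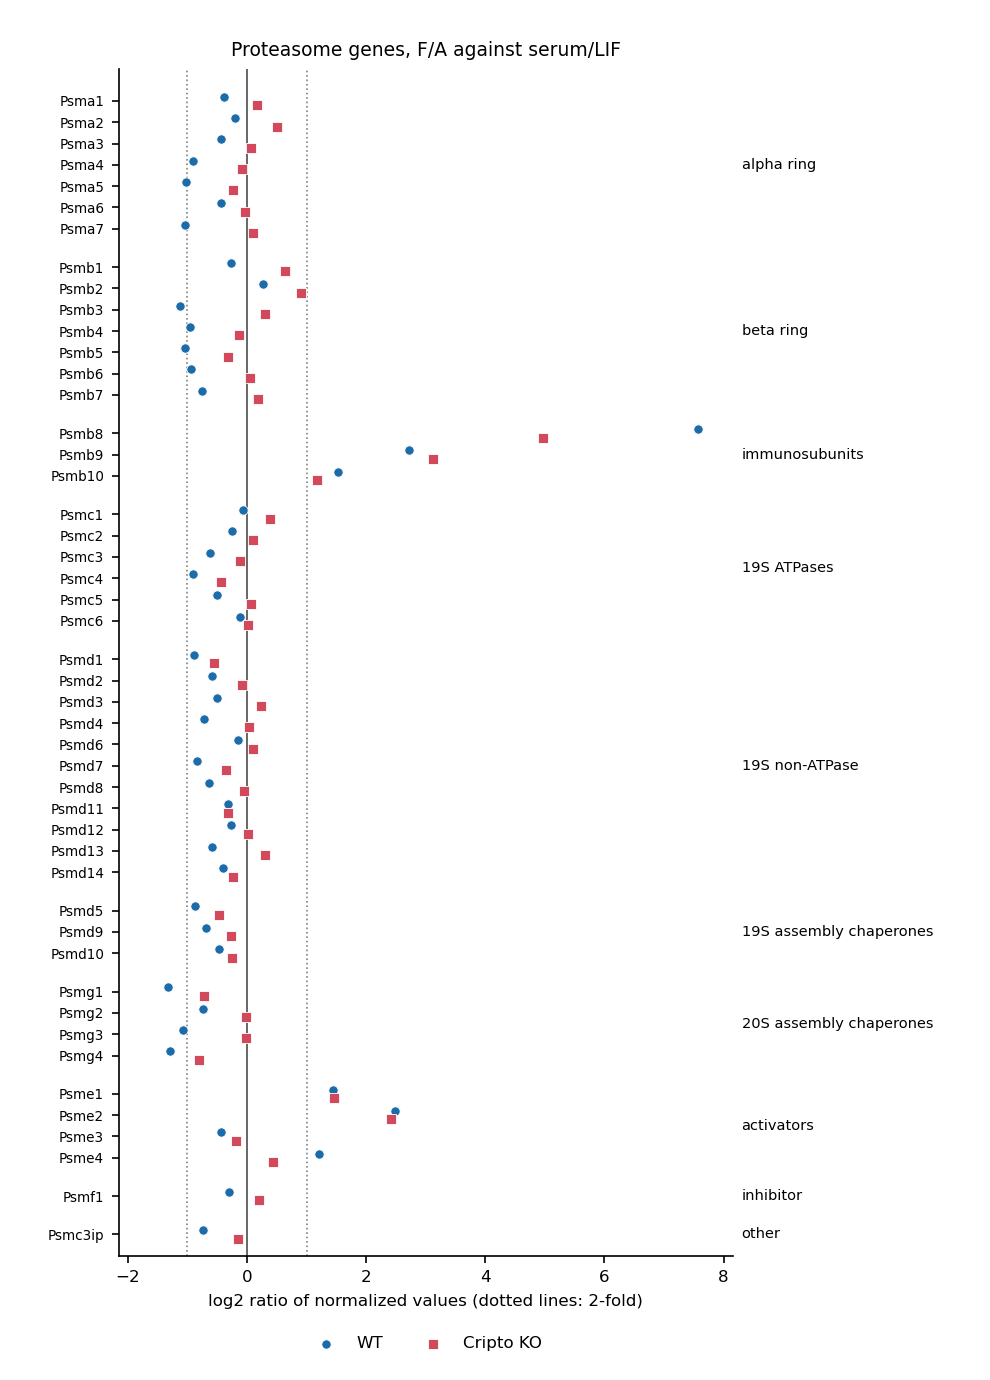
Log2 ratio of F/A to serum/LIF (normalized values) of each member in WT (circles) and Cripto KO (squares), 1 library per condition, grouped by subcomplex, with dotted lines at 2-fold. Psma8 is left out because its F/A counts are 0 and 2. Most 20S and 19S subunits lie left of 0 in WT and around 0 in Cripto KO, and the immunosubunits, Psme1 and Psme2 lie far to the right in both.

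As a share of all counts, the 31 constitutive 20S and 19S genes made up 0.611% of the WT serum/LIF library and 0.427% of WT F/A. The share was 0.558% in Cripto KO serum/LIF and 0.550% in Cripto KO F/A. The WT F/A library stood below the other 3. For PA28 alpha and beta the shares were 0.00759%, 0.0304%, 0.00665% and 0.0253% in the same order, so the F/A libraries were above the serum/LIF libraries. In bulk RNA, fewer cells that express a gene and less of its RNA per cell cannot be told apart.

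Transcript length moved with the WT result. Short genes were on the whole lower in WT F/A, and the constitutive subunits are short, with a median transcript length of 850.5 bases beside 1787.0 for all genes. For all genes of like length the median was -0.26 (WT) and -0.09 (Cripto KO). After the running median over transcript length was subtracted, the 31 genes had a median of -0.28 in WT and 0.10 in Cripto KO, and 25 of 31 were below 0 in WT. With the length of the longest coding transcript in place of the median length, these medians were -0.20 and 0.18, and 21 of 31 were below 0 in WT. Without either subtraction the WT median of the 31 genes was -0.59, so part of that value moved with length. The immunosubunits and PA28 genes lay above the running median in both genotypes.

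**Figure D4:**
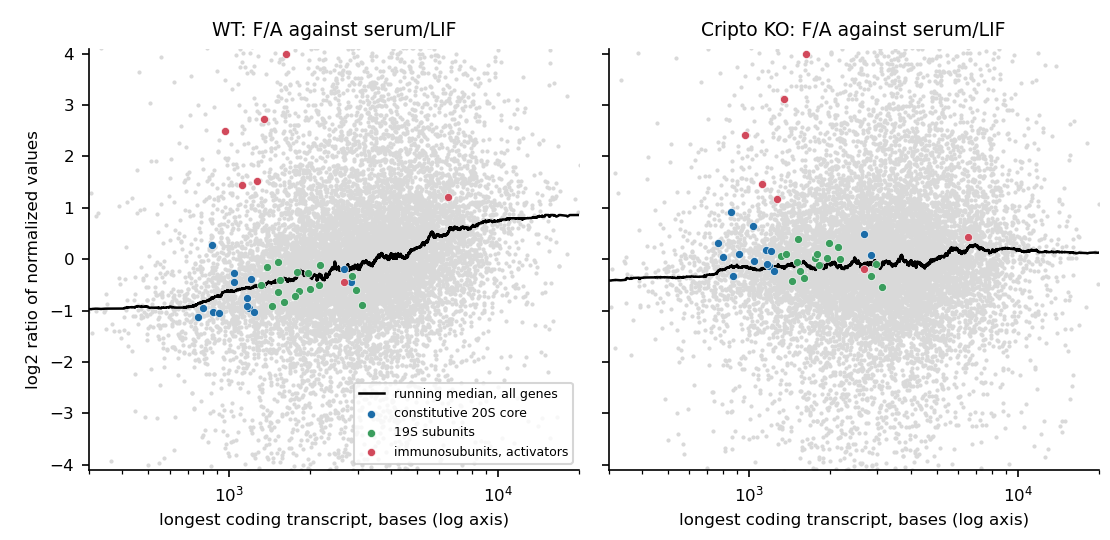
Log2 ratio of F/A to serum/LIF against the length of the longest coding transcript in bases (log axis), in WT (left) and Cripto KO (right), for all genes (grey) with their running median (line) and for the proteasome groups in colour. Psmb8 is drawn at 4 on the vertical axis, although its values are 7.57 and 4.96. In WT most 20S and 19S genes lie on or below a line that rises with length, and in Cripto KO most lie on or above a flatter line.

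In F/A, Cripto KO cells had higher values than WT for 43 of the 48 members, and 5 were lower (48.8% of all genes were lower). The 5 were Psmb8, Psmb10, Psme1, Psme2 and Psme4. At 2-fold no member was lower (5.69% of all genes) and 1 was higher (4.59% of all genes), which is Psma8 with counts under the limit. The median log2 difference was 0.36, and that of all genes 0.00. All 14 core subunits and all 17 19S subunits were higher in Cripto KO F/A, with medians of 0.59 and 0.32. The range in the core was 0.25 (Psma1) to 0.93 (Psma7). With raw counts scaled by library totals 30 of the 31 were higher, and with the running median over the longest coding transcript subtracted 27 of 31 were, with a median of 0.19.

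Markers of other cell types moved with the same pair of libraries. The summed raw counts of 7 fibroblast markers were 1104 in WT F/A and 2988 in Cripto KO F/A, and 2000 and 1996 in WT and Cripto KO serum/LIF. All 6 fibroblast markers in the normalized table were higher in Cripto KO F/A than in WT F/A, 3 of them at least 2-fold (4.59% of all genes). The counting intervals of Postn and Thy1 included 1. Dcn, 1 of the 3, had 5 and 18 raw counts in WT and Cripto KO F/A. For 7 trophoblast markers the sums were 16000 in WT F/A and 19802 in Cripto KO F/A, and 1415 and 815 in serum/LIF, with Elf5 at 0 counts in 3 of the 4 libraries. Krt18 made up 14581 and 16184 of the F/A sums, and Tcfap2c 1191 and 705 of the serum/LIF sums. Cdx2 had 104 and 674 raw counts in WT and Cripto KO F/A (6.37-fold higher), and Hand1 196 and 1730 (8.88-fold higher). The ratios of Cripto KO to WT in F/A were 1.44 for Tcfap2c, 1.04 for Gata3, 1.03 for Krt7 and 0.97 for Krt18. The counting intervals of Gata3 and Krt7 included 1. In the normalized table, 5 of 6 trophoblast markers were higher in Cripto KO F/A than in WT F/A, 2 of them at least 2-fold (4.59% of all genes). All 6 EpiSC markers in the table were lower in Cripto KO F/A (48.8% of all genes), 3 at least 2-fold (5.69% of all genes). The part of these cell types in the proteasome values was not tested.

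In serum/LIF the genotypes lay closer together and in the opposite order. Of the 48 members, 39 were lower in Cripto KO (48.9% of all genes), none at least 2-fold (2.75% of all genes), and 1, Psmb8, was at least 2-fold higher (2.86% of all genes) on 13 against 5 counts. The median was -0.13. All 14 core subunits were lower, with a median log2 difference of -0.21 and a range from -0.56 (Psmb3) to -0.05 (Psma6). The counting intervals of Psma3, Psma6 and Psmb5 included 1. After subtraction of the running median over the longest coding transcript, 6 of 7 were lower in each ring. The medians were then -0.16 for the alpha ring and -0.10 for the beta ring. Of the 19S subunits, 13 of 17 were lower, with a median of -0.09.

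The difference of the transitions, Cripto KO minus WT, was above 0 for all 14 core subunits (median 0.81) and for 16 of the 17 19S subunits (median 0.47). Of all genes, 49.9% were above 0. The same WT F/A library enters this difference, the WT transition and the comparison in F/A, so these counts are views of the same 4 values per gene. Psmb8 (-2.61) and Psme4 (-0.78) had the largest differences below 0. The Psmb8 value rests in large part on 5 and 13 raw counts in WT and Cripto KO serum/LIF. Its log2 difference between genotypes in F/A was -0.85.

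**Figure D5:**
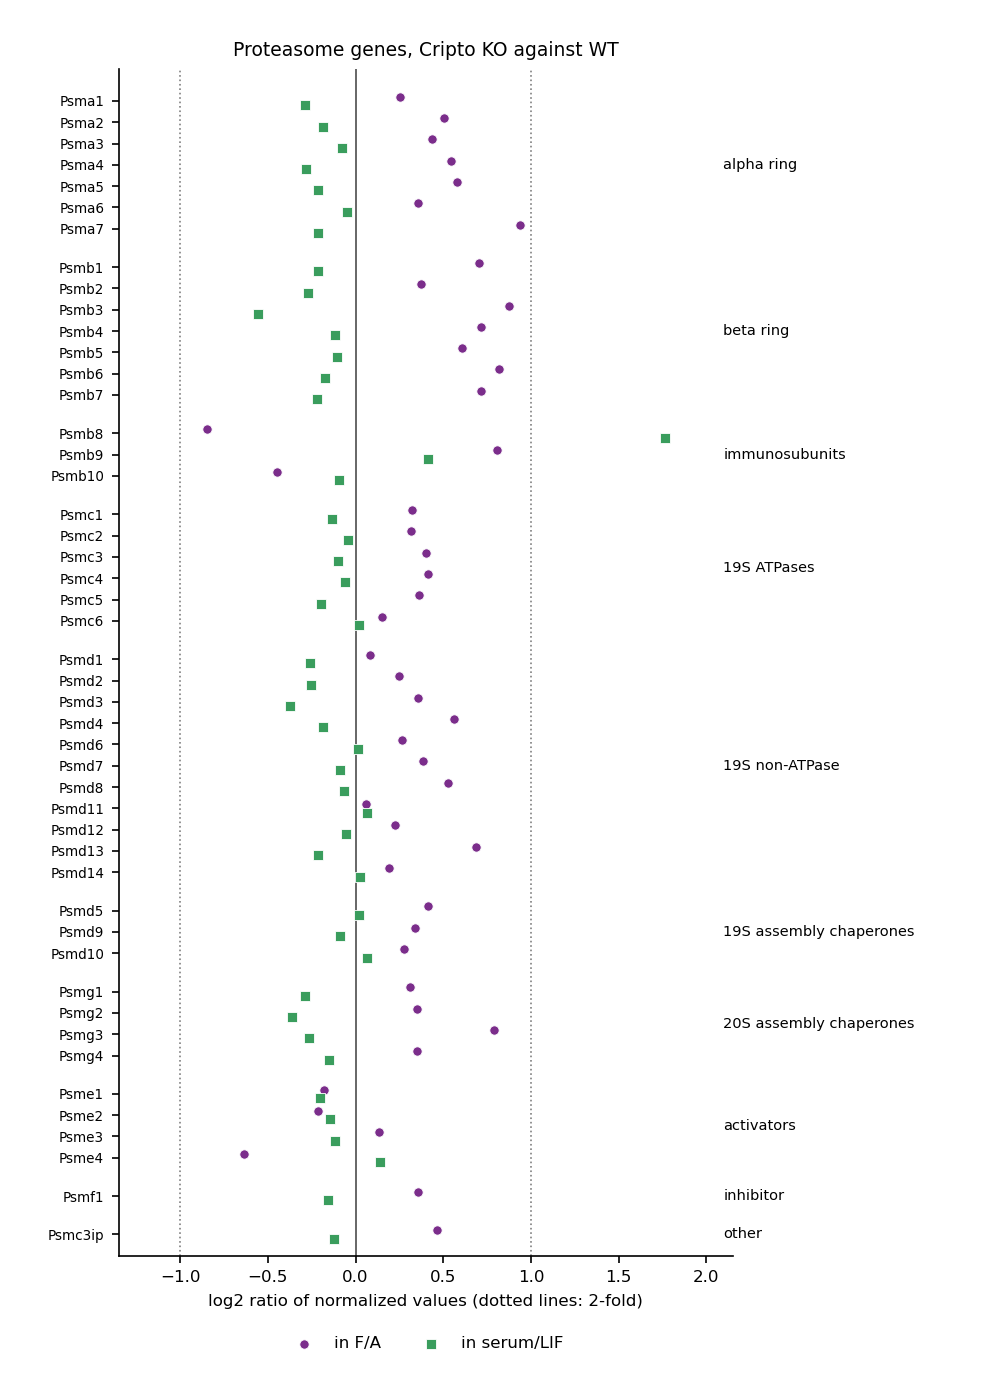
Log2 ratio of Cripto KO to WT (normalized values) of each member in F/A (circles) and serum/LIF (squares), 1 library per condition, grouped by subcomplex, with dotted lines at 2-fold. Psma8 is left out. All 20S and 19S subunits lie right of 0 in F/A, most lie left of 0 in serum/LIF, and Psmb8, Psmb10, Psme1, Psme2 and Psme4 lie left of 0 in F/A.

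Levels within a ring can be compared per kb of the longest coding transcript. In WT serum/LIF the 7 beta subunits spanned a factor of 2.89, from Psmb2 to Psmb6, and in WT F/A a factor of 1.39. In Cripto KO the factors were 3.09 and 1.70. The alpha subunits spanned a factor of 5.58 in WT serum/LIF and 4.69 in WT F/A, with Psma2 the lowest in all 4 libraries. The 6 ATPases spanned a factor of 1.92 in WT serum/LIF and 1.38 in WT F/A. These spans depend on the transcript model, since with the median transcript length the beta ring spanned 3.72 and 2.16 and the ATPases 5.54 and 4.18 in WT serum/LIF and WT F/A.

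Most listed genes that work beside the immunoproteasome were higher in F/A too. The list of antigen processing and interferon response genes held 19 genes. In WT F/A 16 were higher and 3 lower (52.5% of all genes were lower). At least 2-fold, 14 were higher (22.1% of all genes) and 1, the regulator Nlrc5, was lower (log2 change -1.68, 20.9% of all genes). The other genes lower in WT F/A were Calr (-0.28) and Pdia3 (-0.15). The median log2 change was 2.30 in WT. In Cripto KO 16 were higher, 12 of them at least 2-fold (19.9% of all genes), and the median was 1.43. The 3 lower in Cripto KO F/A were Nlrc5 (-1.82), Stat2 (-0.54) and Calr (-0.24), where 52.8% of all genes were lower. Between genotypes in F/A, 16 of 19 were lower in Cripto KO (48.8% of all genes), 3 of them at least 2-fold (5.69% of all genes), with a median of -0.55. In serum/LIF the median was 0.28.

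Erap1, which trims peptides for presentation, had 39 raw counts in WT serum/LIF, 1171 in WT F/A, 43 in Cripto KO serum/LIF and 632 in Cripto KO F/A. Tap2, of the peptide transporter, had 47, 762, 48 and 378 raw counts in the same order, and Tapbp, the tapasin gene, 336, 3007, 256 and 1938. All of these were highest in WT F/A and second highest in Cripto KO F/A. Isg15, an interferon-induced ubiquitin-like protein, had 8, 834, 8 and 444 raw counts. Ifit1 had 8, 187, 18 and 96 and Ifit3, also induced by interferon, 8, 269, 18 and 76. The same order of the 2 F/A libraries was seen for these genes.

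Other proteasome factors did not share one direction. Of 20 associated factors listed, 19 were in the table. In WT 8 were higher and 11 lower in F/A (52.5% of all genes were lower), with a median log2 change of -0.08, and in Cripto KO 11 were higher and 8 lower (median 0.15, with 52.8% of all genes lower). Those past 2-fold were the shuttle factor Ubqln2 (1.57 in WT, 1.44 in Cripto KO), the adaptor Ecm29, listed as AI314180 (1.42 and 1.31), and the stress regulator Nfe2l2, past 2-fold in Cripto KO only by value (-0.93 and -1.28). Nfe2l1, a known activator of proteasome subunit genes and named here after its values were seen, had 5294 raw counts in WT serum/LIF, 7936 in WT F/A, 6077 in Cripto KO serum/LIF and 7854 in Cripto KO F/A. Its log2 changes were 0.78 and 0.38. Between genotypes in F/A, 10 of the 19 factors were higher in Cripto KO and 9 lower (48.8% of all genes were lower). Adrm1, Shfm1 and Pomp were among the 10, with log2 differences of 0.38, 0.62 and 0.28.

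Of the members of the raw table, 4 did not pass the filter. Psmb11, the beta subunit of the thymus, had 0 counts in both serum/LIF libraries and 2 in each F/A library, under the detection limit. Psme2b-ps had at most 3 counts, and the second identifiers of Psmb9 and Psmd14 had 0 counts in all 4 libraries.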

How the data were processed

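RNA of 4 R1 mouse ESC cultures was sequenced, 1 library each. The authors used TopHat2 2.0.13 to align reads to NCBIM37 (mm9) and htseq-count 0.6.1p1 to count them on Ensembl genes, and deposited raw counts. Their second deposited file holds a signal, the quantile-normalized counts of the genes kept by a filter on low expression. Symbols and transcript lengths came from a GENCODE annotation of the same build, which named 98.9% of the raw and 99.8% of the kept genes, and promoters from RefSeq (GRCm38.p6).

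Log2 changes are of normalized values with 0 replaced by 0.5. Intervals are Clopper-Pearson at 95%, on counts scaled by library totals, and the Cripto KO F/A counts were divided by 2. The detection limit was 3 counts, 6 in that library. Depth was 15230856 to 17315442 counts. With 1 library per group no test was run, and the simulated replicates of the paper's methods were not used. The paper's 2-fold threshold was kept. Members and gene lists were chosen with earlier results of these data known. Named were the catalytic pairs, the activators and inhibitor, members past 2-fold with at least 50 counts, the extremes of each subcomplex, and up to 6 genes past 2-fold per further list. Alternatives were scaling by totals, edgeR 4.0.16 TMM factors or DESeq2 1.42.0 size factors (R 4.3.3), 5 added to values, no filter, a 1.5-fold threshold and subtraction of a running median over 501 genes ordered by length. The longest coding transcript, and leaving out Psmc3ip, Psmb9 and Psma8, were added after seeing the data. Python 3.11.15, numpy 2.4.6, pandas 2.3.3, scipy 1.17.1 and matplotlib 3.10.9 were used, and simulated data served to test the intervals. The result of 1 further gene list is not reported here.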

Additional observations from a re-analysis of the deposited data

Results flagged for a closer look

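For 7 members the 2 genotypes moved in opposite directions between serum/LIF and F/A, with counting intervals of the ratios on opposite sides of 1. Each was lower in F/A in WT and higher in Cripto KO. The share of all genes that meet the same rule was not computed, so whether 7 members is many cannot be said. The log2 difference of the transitions, Cripto KO minus WT, was 1.44 for Psmb3, 0.94 for Psmb7 and 0.92 for Psmb1, all of the beta ring. It was 0.90 for Psmd13 and 0.73 for Psmd3 of the 19S particle, 0.54 for Psma1 of the alpha ring and 0.51 for the inhibitor Psmf1. After subtraction of the running median over transcript length the directions were still opposite for 6 of the 7. The exception was Psmb1, at 0.16 in WT and 0.84 in Cripto KO. Over the longest coding transcript they were opposite for 5, and Psmb1 (0.36 and 0.85) and Psma1 (0.19 and 0.33) were above 0 in both genotypes. The difference was not tested, since each genotype and medium has 1 library.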

How the results depend on the processing

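No paired analysis was possible because each condition had 1 library. Of 104 recomputed summary values over the members, 85 stayed within their limits and 19 moved, and of 836 values for single members and pairs, 691 stayed and 145 moved. The limit of a median came from the members' counting intervals, and that of a count was a 1.5-fold change. For a single member or pair it came from its own counting interval. Where that interval was unbounded, as for Psma8 in WT, the limit was set so wide that the value could hardly move. These limits do not measure agreement between cultures. No value past 2-fold changed sign. Of 812 log2 changes of single members, 27 changed sign, 15 of them under the length subtractions, all from values of at most 0.37 in size. The median log2 change in WT of -0.54 became -0.30 after subtraction of the running median over transcript length and -0.21 over the longest coding transcript. With the latter, the Cripto KO median became 0.15 and the median in F/A between genotypes 0.16. The 8 members at least 2-fold lower in WT F/A became 4 under library totals, TMM and DESeq2 factors, 1 under either length subtraction, 5 of 50 with no filter and 24 at 1.5-fold. The 1 member lower in Cripto KO F/A became 0 without Psmc3ip, Psmb9 and Psma8, and 3 at 1.5-fold. Between genotypes in F/A, the 1 higher member became 0 with 5 added to every value or without those 3 genes, 2 with no filter and 11 at 1.5-fold, and the 0 lower members became 1 over the longest coding transcript and 2 at 1.5-fold. No scaling moved the median of all genes by more than 0.10 on the log2 scale.

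Depth limited Psmb8 in serum/LIF (5 and 13 counts), Psmb9 and Psma8 in F/A. Without replicates, differences among cultures of 1 condition cannot be told apart from differences between conditions.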
